A study of Macaca mulatta with 4 samples.

Results

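Transcription factors that mark inhibitory neurons of the cerebellum were followed through single-nucleus RNA-seq of 4 fetal rhesus macaques. The set was given by gene symbol as PAX2, TFAP2A, TFAP2B, SKOR1, SKOR2, LHX1, LHX5, FOXP2, FOXP4 and RORA. 9 of the 10 symbols had a row in the count matrices, and LHX5 was not analysed here. Their identifiers in the files were ENSMMUG00000009163 (PAX2), ENSMMUG00000006186 (TFAP2A), ENSMMUG00000002869 (TFAP2B), ENSMMUG00000014485 (SKOR1), ENSMMUG00000048459 (SKOR2), ENSMMUG00000021668 (LHX1), ENSMMUG00000008005 (FOXP2), ENSMMUG00000019985 (FOXP4) and ENSMMUG00000018192 (RORA). Nuclei came from flash frozen cerebellar hemispheres and part of the vermis of 2 fetuses without intervention (Control, a female and a male, both at 130 days of gestation) and of 2 fetuses whose mothers received 1 mg of lipopolysaccharide, a bacterial endotoxin, into the amniotic fluid (LPS, a female at 131 days and a male at 133 days). Each fetus gave 1 library and carried no genetic alteration named in the labels. The fetus was thus the replicate, and a comparison of exposures set 2 libraries against 2. Both LPS fetuses were older than both Control fetuses, so exposure and gestational age cannot be told apart. A p-value measures the spread between these fetuses alone, which within a group is that between 1 female and 1 male.

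All inhibitory neurons of the cerebellum arise from ventricular zone progenitors that use the factor PTF1A, whereas granule cells arise from the rhombic lip. PAX2 comes on as interneuron precursors leave the cell cycle and migrate through the white matter, and it is held in Golgi cells. The AP-2 factors TFAP2A and TFAP2B act downstream of PTF1A, and SKOR1 and SKOR2 are related co-repressors of the SKI family, of which SKOR2 is needed for Purkinje cell differentiation. LHX1 is a LIM-homeodomain factor of postmitotic Purkinje cells, FOXP2 and FOXP4 are forkhead repressors, and RORA is an orphan nuclear receptor whose loss causes the staggerer phenotype, with failure of Purkinje cell maturation.

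The 4 libraries held 34282015 to 61665690 UMIs, and 6890 to 9250 barcodes per library were taken as nuclei, those in which 500 or more genes were seen and no more than 5% of UMIs were mitochondrial. Libraries of the 2 sexes differed in quality. The median number of UMIs per nucleus was 4508 and 4063 in the Control and LPS female libraries and 1882 and 2308.5 in the male libraries, and the mean mitochondrial share was 0.263% and 0.212% against 0.0212% and 0.0315%. Sex and library quality cannot be told apart, with 1 library of each sex per group. The LPS male library also stood apart in that 38.7% of its UMIs fell in nuclei, against 58.7 to 73.9% elsewhere, and in that 1927 of the 2497 nuclei of a low-UMI cluster that was left unnamed were its own. Pairs of libraries shared 16 to 22 barcodes, where 7.93 to 11.7 would be expected from their sizes.

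Nuclei were clustered without the 10 symbols among the variable features and named from marker genes that did not include them, so that class names stand for nuclei that resemble a cell type and the factors took no part in naming them. The inhibitory classes held 1429 immature interneurons (404, 459, 286 and 280 in the Control female, Control male, LPS female and LPS male libraries, the order used throughout), 219 molecular layer interneurons (37, 65, 41 and 76), 197 Golgi cells (43, 85, 54 and 15) and 131 Purkinje cells (32, 56, 25 and 18). The marker genes of the Purkinje class summed to between 44670 and 94530 CPM in the Purkinje nuclei of each library, and those of the Golgi class to between 13690 and 26430 CPM in Golgi nuclei. KIT, a defining marker of molecular layer interneurons, had no row under that symbol, and that class was named from 11 other markers, of which 10 were raised, NXPH1 and KCNMA1 among the 10 leading genes. NXPH1 is also among the Golgi markers. The molecular layer markers summed to 18090, 22950, 16970 and 11440 CPM in their own class. In the LPS male library immature interneurons, at 15630 CPM, and Golgi cells, at 14240 CPM, had more of them. In the other libraries both had less, so these markers did not set the class apart in the LPS male alone. Here CPM stands for counts-per-million, the UMIs of a gene scaled to all UMIs of a class in 1 library, a scale on which levels of 1 gene can be set against each other between classes but levels of different genes cannot.

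PAX2 was the factor of interneurons and Golgi cells. It reached 609, 709, 662 and 973 CPM in Golgi cells, 357, 560, 358 and 177 CPM in immature interneurons, and 352, 476, 294 and 106 CPM in molecular layer interneurons. No library overlapped between Golgi cells and immature interneurons, whereas immature and molecular layer interneurons overlapped. The next class in order, the oligodendrocyte lineage, had a mean of 21.5 ± 32.9 CPM (SD, n = 4), and granule nuclei had 2.35 to 10.1 CPM. Purkinje cells, the other arm of the inhibitory lineage, had 0 to 7.84 CPM. Of all 4428 PAX2 UMIs, 51.0% lay in immature interneurons, 26.6% in Golgi cells and 8.13% in molecular layer interneurons. In droplets without nuclei the gene stood at 21.9 to 63.6 CPM, above its level in every granule library.

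The AP-2 factors followed PAX2. TFAP2B had 356, 300, 391 and 212 CPM in immature interneurons, 215, 244, 271 and 277 CPM in Golgi cells and 135, 118, 165 and 113 CPM in molecular layer interneurons. Immature interneurons and Golgi cells overlapped, and both lay above molecular layer interneurons in each library. TFAP2A had 90.4, 81.8, 88.2 and 65.1 CPM in immature interneurons, with no overlap with Golgi cells at 23.7 to 64.3 CPM or molecular layer interneurons at 32.2 to 50.2 CPM. Neither gene passed a mean of 5.60 CPM in Purkinje cells. Outside the interneurons, TFAP2B was seen in proliferating glia, at 47.9, 50.3, 97.3 and 8.41 CPM, where the LPS male value was 1 UMI. Free RNA had 34.2, 31.2, 38.5 and 23.8 CPM of it, and 21.4, 18.3, 20.6 and 6.90% of these glia were scored as doublets, whose part in the level was not tested. In single nuclei, 141 of the 182 Golgi nuclei with a PAX2 UMI also had TFAP2B. Only 15 Golgi nuclei lacked PAX2, and in the Control male library, which held 11 of them, the shares with TFAP2B were 64.9% with and 63.6% without PAX2. In immature interneurons the shares were 65.7% and 55.6% over all libraries, but 79.6% against 82.0% in the LPS female and 41.0% against 44.4% in the LPS male library, so that the pair was not found together more often in every library.

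**Figure D1:**
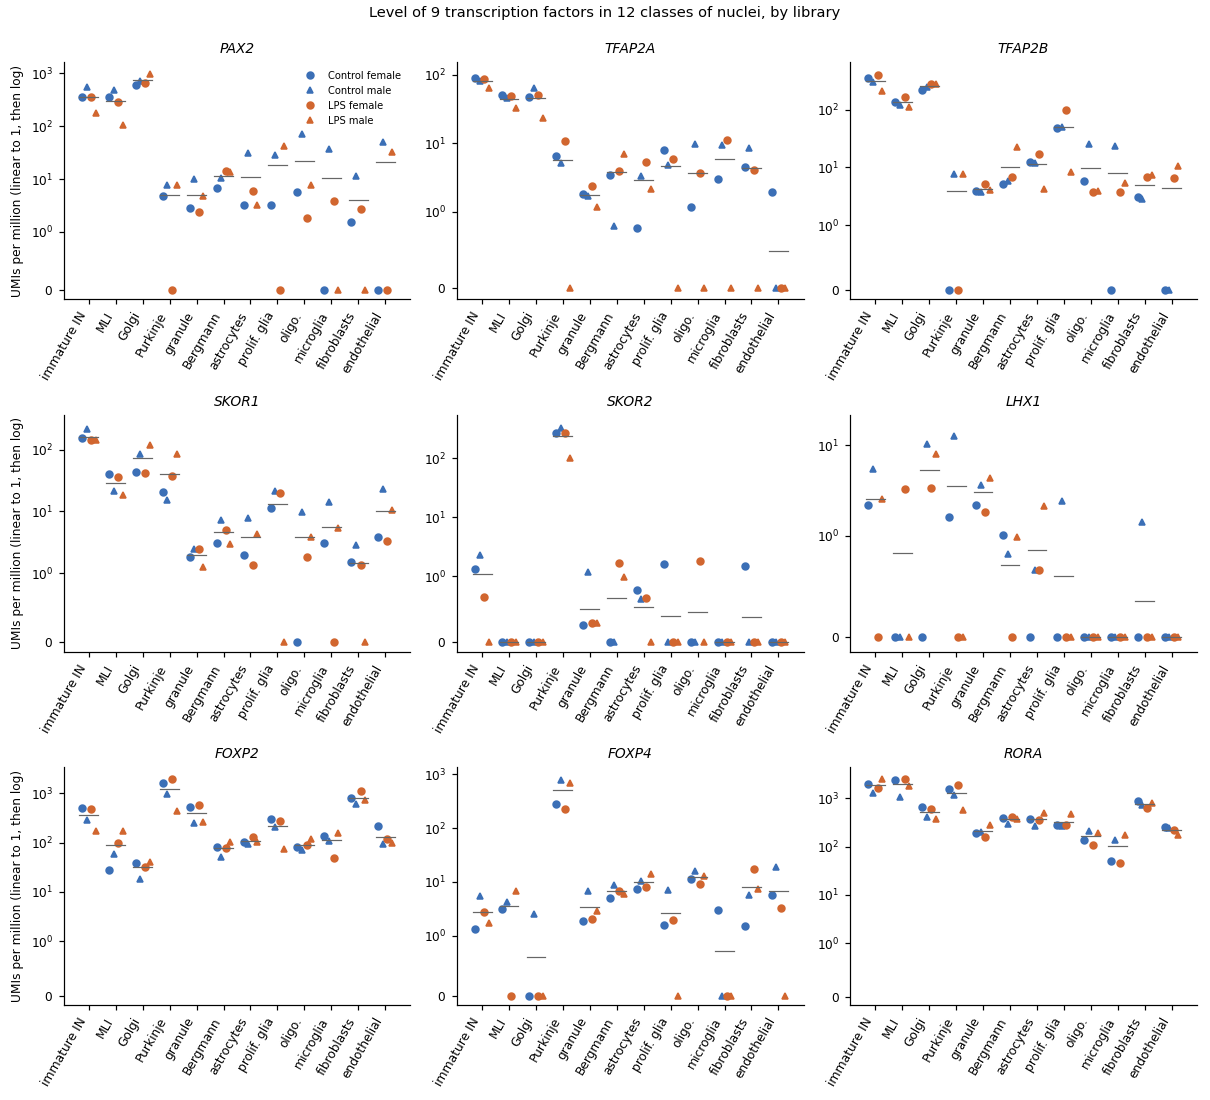
Level in CPM of each factor (y axis, linear up to 1 and logarithmic above) in 12 classes of nuclei (x axis), with 1 point per library, circles for female and triangles for male fetuses, blue for Control and orange for LPS, and a bar at the mean of the 4 libraries. PAX2, TFAP2A and TFAP2B stood high in the first 3 classes, SKOR2 and FOXP4 in Purkinje cells, and LHX1 was measured at 12.7 CPM or less in each class.

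The 2 SKOR co-repressors were highest in different inhibitory classes. SKOR1 was highest in immature interneurons, at 153, 217, 143 and 141 CPM, without overlap with Golgi cells at 41.9 to 119 CPM, and was at 18.4 to 40.8 CPM in molecular layer interneurons, where free RNA had 17.1 to 34.8 CPM. SKOR2 had 274, 323, 274 and 102 CPM in Purkinje cells, from 170, 127, 126 and 13 UMIs. The next class, immature interneurons, had 3, 3, 1 and 0 UMIs, a level of 0 to 2.32 CPM beside 0.743 to 9.60 CPM in free RNA, and Purkinje cells held 88.6% of all its UMIs although they were 131 nuclei. No SKOR2 UMI was found in molecular layer interneurons, Golgi cells, microglia or endothelial cells of any library, which allows up to 23.7 CPM in the smallest Golgi library. SKOR1 stood at 20.9, 15.3, 36.9 and 86.3 CPM in Purkinje cells, beside 20.5, 34.8, 23.3 and 17.1 CPM in free RNA. How much free RNA adds to a nucleus was not measured, so these SKOR1 UMIs cannot be assigned to nucleus or free RNA.

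LHX1 was scarcely detected in Purkinje cells. They held 1, 5, 0 and 0 UMIs of it, 12.7 CPM in the highest library, where a count of 0 in the LPS male library allows up to 23.5 CPM, and 4 of 98 SKOR2-positive Purkinje nuclei had one. All nuclei together held 285 LHX1 UMIs, of which 73.7% were in granule nuclei. These were the most numerous class, with 55.4 to 74.2% of the nuclei of a library. Droplets without nuclei had 2.74, 4.80, 4.81 and 3.72 CPM, so that granule nuclei as a whole, at 2.22, 3.68, 1.82 and 4.34 CPM, were below free RNA in all but the LPS male library. Within granule nuclei LHX1 was uneven: the cluster led by COMP and SFRP1 had 7.07, 10.2, 5.06 and 14.7 CPM and that led by RASGEF1B and EBF3 had 6.36, 9.56, 4.76 and 9.88 CPM, against 0.377 to 3.05 CPM in the cluster led by TRPC7 and RIT2. The first 2 lay above the free RNA level of their own library in all but 1 instance, the RASGEF1B cluster of the LPS female.

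FOXP2 and FOXP4 are relatives, and their spread over classes differed. FOXP4 was a Purkinje gene here, at 283, 789, 230 and 698 CPM, whereas the next class, the oligodendrocyte lineage, had a mean of 12.4 ± 2.87 CPM (SD, n = 4), beside free RNA at 8.21 to 22.8 CPM. FOXP2 reached 1596, 964, 1941 and 431 CPM in Purkinje cells, but fibroblasts of the meninges had 791, 595, 1101 and 729 CPM and overlapped with them. In Purkinje nuclei the pair was found together, with FOXP4 in 112 of 119 nuclei that had FOXP2. Golgi cells had the lowest mean FOXP2 of the 12 classes, at 18.0 to 39.6 CPM, under the free RNA level of 246 to 345 CPM. In the Control female library molecular layer interneurons were lower, at 28.3 against 38.2 CPM. Immature interneurons had 493, 290, 466 and 170 CPM, above Golgi cells and above molecular layer interneurons, at 28.3, 59.0, 99.1 and 168 CPM, in each library, with the 2 interneuron classes nearly level in the LPS male.

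Granule nuclei held 73.6% of all FOXP2 UMIs. They were 73.7, 70.1, 74.2 and 55.4% of the nuclei of the libraries, so much of that share goes with their number. The FOXP2 level in granule nuclei moved with the cluster. It was 1337, 492, 1244 and 894 CPM in the cluster led by the division genes EXO1 and KIF11, and 1958, 759, 1750 and 1185 CPM in that led by COMP and SFRP1. It then stood at 1091, 402, 1022 and 696 CPM in the RASGEF1B and EBF3 cluster, 340, 185, 405 and 258 CPM in the KIAA1217 and CNTN2 cluster, and 60.7 to 114 CPM in the CHRM3 and NTF3 cluster. The cluster led by TRPC7 and RIT2 had 33.4 to 68.9 CPM. Against free RNA at 345, 246, 313 and 303 CPM, the CHRM3 and TRPC7 clusters were below in every library and the KIAA1217 cluster in 3 of 4, so the lower end of this order lay under the free RNA level. Each library showed the same order of the COMP, RASGEF1B, KIAA1217 and CHRM3 clusters. RORA did not follow it, with 110 to 309 CPM over these 6 clusters.

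**Figure D2:**
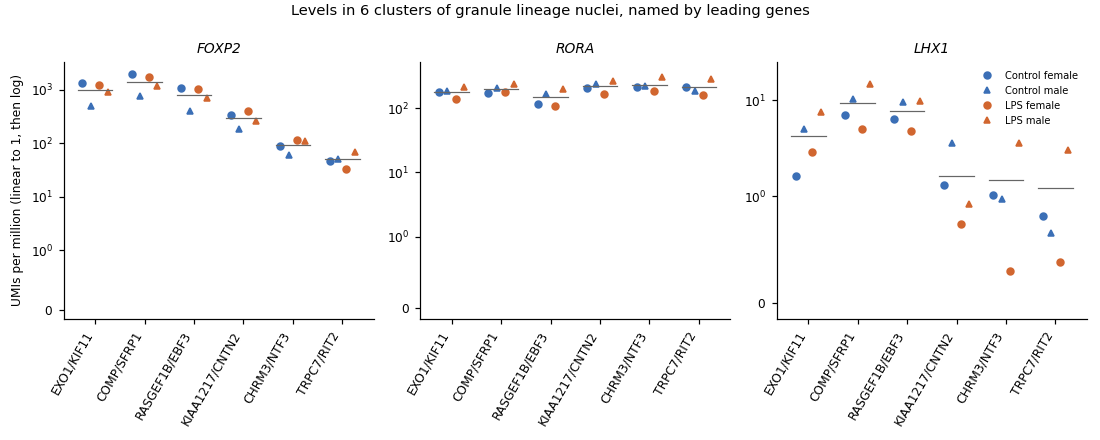
Level in CPM of FOXP2, RORA and LHX1 (y axes, linear up to 1 and logarithmic above) in 6 clusters of granule nuclei named by leading genes (x axis), with points as in the plot of levels by class and bars at the mean. FOXP2 lay at 759 to 1958 CPM in the COMP/SFRP1 cluster and at 33.4 to 68.9 CPM in the TRPC7/RIT2 cluster, whereas RORA stayed between 110 and 309 CPM.

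The mean level of RORA was highest in molecular layer interneurons, immature interneurons and Purkinje cells. It had 2423, 1075, 2588 and 1779 CPM in the first, 2025, 1284, 1679 and 2494 CPM in the second and 1575, 1193, 1896 and 588 CPM in the third, and these 3 neighbours in the order overlapped. Fibroblasts came next, at 870, 748, 630 and 795 CPM, and overlapped with Purkinje cells, whose LPS male library was below all 4 of them. Golgi cells were lower on average, at 651, 416, 605 and 380 CPM, without overlap with either interneuron class. Granule nuclei had 162 to 280 CPM, near the free RNA level of 185 to 410 CPM.

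A finer clustering, in which the factors again took no part, set PAX2 and RORA against each other among interneurons. A cluster of 1056 nuclei led by GAD1 and ZBTB16, and classed as immature, had 473, 663, 440 and 255 CPM of PAX2 and 1346, 1015, 1282 and 1784 CPM of RORA. A cluster of 230 nuclei led by TTC39A and SORCS3, which took the molecular layer name at that setting although the coarser clustering placed such nuclei with the immature class, had 33.7, 143, 111 and 32.8 CPM of PAX2 and 4393, 2697, 3542 and 4270 CPM of RORA. PAX2 was thus lower and RORA higher in the second cluster in every library, with no overlap for either gene. The NXPH1 and SCUBE1 cluster, the molecular layer class at both settings, kept PAX2 at 106 to 473 CPM beside RORA at 1075 to 2588 CPM. After each nucleus was thinned to 1000 UMIs, RORA was found in 82.0 to 94.7% and PAX2 in 3.51 to 9.84% of SORCS3 cluster nuclei. Within the whole immature class, without thinning, RORA was found in 85.2% of nuclei with and 85.0% of nuclei without a PAX2 UMI. In the molecular layer class of the coarser clustering the shares were 77.3% and 93.6%.

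A small cluster of 135 nuclei (43, 45, 34 and 13) was led by PRDM13 and KIRREL2, a factor and an adhesion protein of ventricular zone progenitors, with GADD45G and EBF2. Its immature interneuron name rested on 4 of 10 markers of that class being raised, none of them among its 10 leading genes. It had the highest TFAP2B of the 5 fine clusters of interneurons, at 747, 609, 735 and 393 CPM, the highest SKOR1, at 343, 562, 247 and 284 CPM, and FOXP2 at 2084, 1199, 1835 and 545 CPM. PAX2 was at 273, 400, 260 and 43.6 CPM, the last from 2 UMIs, beside 26.8 CPM in free RNA of the LPS male. SKOR2 had 0 UMIs, which allows up to 65.4 CPM in that library. FOXP2 was higher there than in the GAD1 and ZBTB16 cluster in each library, where it had 443, 247, 359 and 202 CPM.

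**Figure D3:**
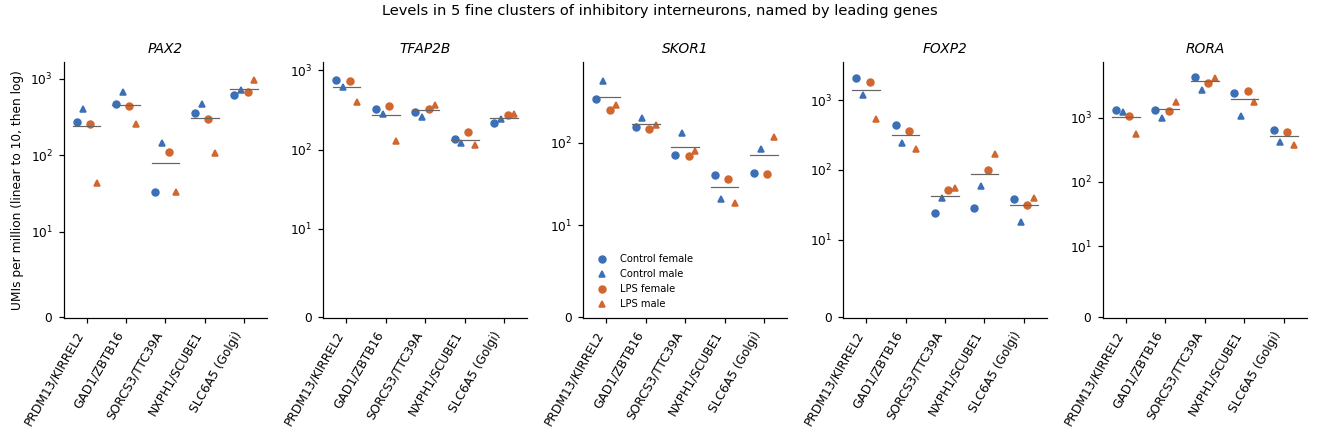
Level in CPM of 5 factors (y axes, linear up to 10 and logarithmic above) in 5 fine clusters of interneurons named by leading genes (x axis), with points as in the plot of levels by class and bars at the mean. TFAP2B, SKOR1 and FOXP2 were highest in the PRDM13/KIRREL2 cluster, RORA in the SORCS3/TTC39A cluster and PAX2 in the SLC6A5 cluster of Golgi cells.

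Genes most like each factor over 12 classes were chosen by their levels and so share its classes. By Pearson's r of log2(CPM + 1), a description over 12 classes that share 4 libraries, PAX2 was most like SLC6A5, the glycine transporter of Golgi cells (0.949), ADARB2 (0.943) and TFAP2B (0.932). SKOR1 was most like GAD2 (0.931) and GAD1 (0.907), the enzymes of GABA synthesis. SKOR2 was most like NME8 (0.996), ADGRG4 (0.993) and SHH (0.984), the hedgehog ligand of Purkinje cells. TFAP2A was most like NRXN3 (0.934). TFAP2B was close to SLC30A3 (0.947). FOXP2 was close to TCEAL8 (0.926) and TFG (0.871), FOXP4 to BSPRY (0.941), NRK (0.933) and ITPKA (0.929), and RORA to TSKS (0.930), RAB3D (0.861) and TUB (0.841). Among the factors themselves, PAX2 and TFAP2B stood at 0.932, SKOR2 and FOXP4 at 0.910 and PAX2 and FOXP2 at -0.527.

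LPS was then set against Control in each class by edgeR's quasi-likelihood test on UMIs summed per library, with Benjamini-Hochberg adjustment over all genes tested and calls at an adjusted p below 0.1 with an absolute log2 fold difference above 0.25. No factor passed in any class, and no gene did: 0% of 9935 genes were called in immature interneurons, 0% of 5699 in molecular layer interneurons, 0% of 7024 in Golgi cells, 0% of 6539 in Purkinje cells, 0% of 14882 in granule nuclei and 0% of 16138 in all barcodes with 500 or more genes. At an unadjusted p under 0.05 edgeR had 27, 71, 14, 32, 27 and 37 genes, and DESeq2 also called 0 in each. The main edgeR fit had no sex term, so the spread within a group held the gap between the sexes and their library quality. With sex as a term, 272, 272, 227, 113, 272 and 341 genes had an unadjusted edgeR p under 0.05. That fit called 4 genes in molecular layer interneurons and 0 in each other class. The absence of calls in the main fit does not show equal levels. With 2 libraries against 2, an exact permutation test of a single value cannot go below p = 0.333. In the tests 6, 6, 6, 5, 8 and 9 of the factors, in that order, had enough UMIs to enter, and the values that follow are those of these members alone. The SE printed with a log2 difference was worked back from that difference and the F statistic of the edgeR test. It restates the p-value and is no separate measure of spread.

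In immature interneurons 2 of 6 factors, PAX2 and SKOR1, had both LPS libraries below both Control libraries after TMM scaling, where 17.3% of all genes did not overlap between exposures. PAX2, at 357 and 560 CPM in Control and 358 and 177 CPM in LPS before that scaling, differed by -0.75 ± 0.46 (log2, SE, edgeR adjusted p = 1.00). The groups overlapped before TMM scaling, and the Control and LPS female libraries were level, with a log2 ratio of 0.0054 and a 95% counting interval of -0.157 to 0.166. The male libraries differed by -1.66 (-1.89 to -1.43). Without the LPS male library the difference was -0.31 and without the LPS female library -1.43. SKOR1 differed by -0.38 ± 0.31, with -0.101 (-0.357 to 0.152) between females and -0.618 (-0.904 to -0.336) between males. TFAP2B overlapped between exposures, with 0.136 (-0.0213 to 0.293) between females and -0.505 (-0.741 to -0.271) between males. These within-sex intervals, exact and binomial, cover counting error only and compare 1 library with 1.

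In the same class RORA turned in the other direction. It was lower in the LPS than in the Control female library, at a log2 ratio of -0.27 (-0.342 to -0.199), and higher in the LPS than in the Control male library, at 0.957 (0.87 to 1.05), so that the difference over both, 0.30 ± 0.44 (edgeR adjusted p = 1.00), was small. The LPS male library thus had the least PAX2 and the most RORA of the 4. Its fetus was also the oldest, at 133 days of gestation, and the part of age was not tested. The markers of the class itself summed to 36670, 34400, 39400 and 27060 CPM, lowest in that library, and those of molecular layer interneurons to 8296, 12050, 7282 and 15630 CPM and of granule nuclei to 6129, 5621, 6159 and 8886 CPM, both highest there. Their part in the PAX2 and RORA levels was not tested. It also had a larger part of its interneurons in the SORCS3 fine cluster, 75 nuclei beside 189 in the GAD1 and ZBTB16 cluster, where the other libraries had 57 beside 304, 61 beside 348 and 37 beside 215. Within the GAD1 and ZBTB16 cluster PAX2 was still lowest in the LPS male library, at 255 CPM against 440 to 663 CPM. The part of cluster make-up in the class level was not tested further.

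In molecular layer interneurons 2 of 6 factors did not overlap between exposures, against 20.6% of all genes. PAX2 differed by -1.03 ± 0.55 (edgeR adjusted p = 1.00), from -0.259 (-0.677 to 0.156) between females and -2.17 (-2.7 to -1.66) between males, and by -0.42 without the LPS male library. The summed markers of immature interneurons in this class were 26950, 29680, 29200 and 12070 CPM and those of the class itself 18090, 22950, 16970 and 11440 CPM, both lowest in the same LPS male library. Markers of glutamatergic cerebellar nuclei neurons were at 34.5, 42.1, 13.2 and 272 CPM, highest there, and the part of these values in the PAX2 level was not tested. FOXP2 had 28.3 and 59.0 CPM in Control and 99.1 and 168 CPM in LPS, a log2 difference of 1.62 ± 0.51, with an unadjusted p of 0.0112 in the edgeR fit and an adjusted p of 1.00. That value rested on few nuclei: 9, 14, 30 and 73 UMIs lay in 2, 9, 5 and 16 nuclei, and 1 LPS male nucleus held 55 of the 73. Without the nucleus with most FOXP2 UMIs in each library, a check chosen after the data were seen, the levels were 3.27, 47.9, 61.1 and 43.5 CPM, the groups overlapped and the difference was 1.13 ± 0.91. Every one of the 4 unaltered levels lay below free RNA, at 246 to 345 CPM.

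Golgi cells kept PAX2 in all 4 fetuses. PAX2 and TFAP2B, 2 of 6 factors, had both LPS libraries above both Control libraries after TMM scaling, where 17.7% of all genes did not overlap, with log2 differences of 0.27 ± 0.52 and 0.25 ± 0.46 (edgeR adjusted p = 1.00 for each). Before TMM scaling the PAX2 groups overlapped, at 609 and 709 against 662 and 973 CPM. The PAX2 level in the LPS male library was thus lowest of the 4 in immature and molecular layer interneurons and highest of the 4 in Golgi cells, the last from 123 UMIs in 15 nuclei. RORA was at -0.12 ± 0.58.

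In Purkinje cells 2 of 5 factors did not overlap between exposures, against 18.9% of all genes. SKOR2, the most Purkinje-confined, was at 274 and 323 CPM in Control and at 274 and 102 CPM in LPS, a log2 difference of -0.63 ± 0.60 (edgeR adjusted p = 1.00). The females were level, with a log2 ratio of -0.00089 (-0.345 to 0.340), and the males differed by -1.66 (-2.61 to -0.839). Without the LPS male library the SKOR2 difference was -0.10. FOXP2 and RORA were also lowest in the LPS male library, with ratios between males of -1.16 (-1.6 to -0.75) and -1.02 (-1.39 to -0.666) and ratios between females of 0.283 (0.151 to 0.415) and 0.267 (0.134 to 0.401). FOXP4 did not follow, at -0.176 (-0.533 to 0.168) between males and -0.3 (-0.662 to 0.0555) between females, with -0.25 ± 0.70 over both. SKOR1, from 13, 6, 17 and 11 UMIs and near or under free RNA in Control, differed by 1.56 ± 0.71 (unadjusted p = 0.0570 and adjusted p = 1.00 in the edgeR fit).

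The LPS male Purkinje class held 18 nuclei, of which 7 had a SKOR2 UMI at a median of 7055 UMIs per nucleus, against 41 of 56 in the Control male library at a median of 6725. After thinning to 1000 UMIs, SKOR2 was found in 24.1, 34.6, 30.4 and 5.88% of Purkinje nuclei. Of 14 Purkinje program genes with a mean of at least 10 CPM, 5 were lowest and 4 highest of the 4 libraries in the LPS male one. The 4 were ITPR1, PCP2, EBF2 and PRDM8. ITPR1, the calcium release channel of Purkinje cells, was at 14170, 12690, 13500 and 14350 CPM, the glutamate transporter gene SLC1A6 at 1728, 1341, 1490 and 1592 CPM, and the summed Purkinje markers at 94530, 44670, 71290 and 52720 CPM. PCP2, a Purkinje cell protein, was at 261, 168, 119 and 1325 CPM, and the factor EBF2 at 198, 115, 84.7 and 282 CPM. The lowest there were CALB1, CA8, EBF1, ESRRB and DAB1, of which EBF1, an early B-cell factor gene, was at 3227, 2221, 4041 and 1388 CPM and DAB1, the reelin adaptor, at 3102, 2208, 3481 and 1263 CPM. CA8, a partner of the ITPR1 channel, was at 2185, 1063, 1948 and 674 CPM. Marker sums of other classes in these nuclei moved both ways in the LPS male library. Those of unipolar brush cells were 2781, 2241, 3277 and 619.5 CPM and those of proliferating glia 972.7, 999.9, 1831 and 243.1 CPM, both lowest there. Those of mural cells were 67.6, 122, 76.0 and 251 CPM, highest there. Fewer cells of a subtype and less RNA per cell cannot be told apart at 18 nuclei, and the part of these sums and of this library's quality in the levels was not tested.

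**Figure D4:**
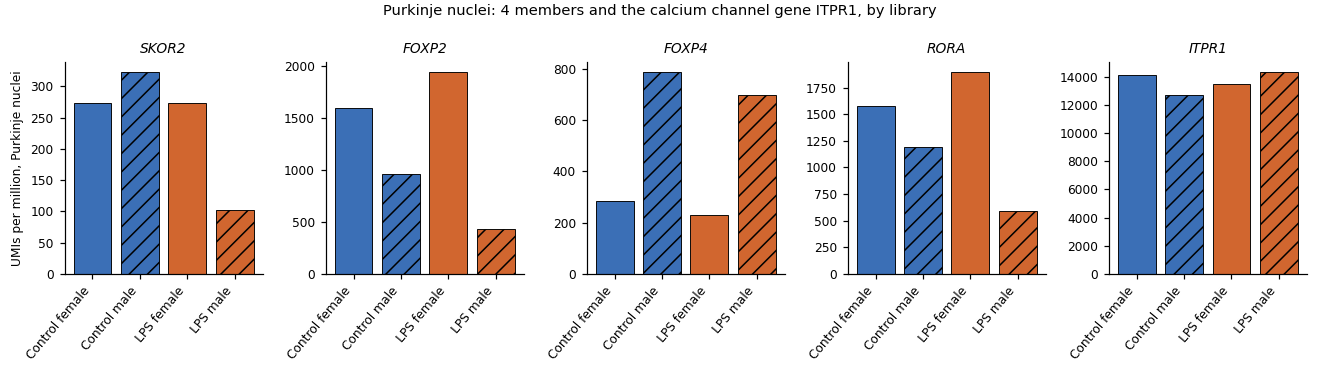
Level in CPM (y axes, from 0) of SKOR2, FOXP2, FOXP4, RORA and ITPR1 in the Purkinje nuclei of the 4 libraries (x axes), blue for Control and orange for LPS, hatched for male fetuses, with 1 bar per library and no error bar. SKOR2, FOXP2 and RORA were lowest in the LPS male library, FOXP4 was higher in the 2 male than in the 2 female libraries, and ITPR1 lay between 12690 and 14350 CPM.

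The libraries were also compared by sex, a split on which most genes did not overlap. The 2 female libraries were both above or both below the 2 male libraries for 3 of 6 factors in immature interneurons (63.3% of all genes), 4 of 6 in molecular layer interneurons (58%), 3 of 6 in Golgi cells (62%) and 3 of 5 in Purkinje cells (56.4%), and for 5 of 8 in granule nuclei (69.2%) and 3 of 9 in all barcodes (68.8%). FOXP2 was higher in both female libraries in 7 of the 12 classes and in no class in both male libraries. FOXP4 was the reverse in the 2 classes where its mean passed 10 CPM, with 230 and 283 CPM in female against 698 and 789 CPM in male Purkinje cells. The counts of factors are too few to be set apart from these shares of all genes.

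**Figure D5:**
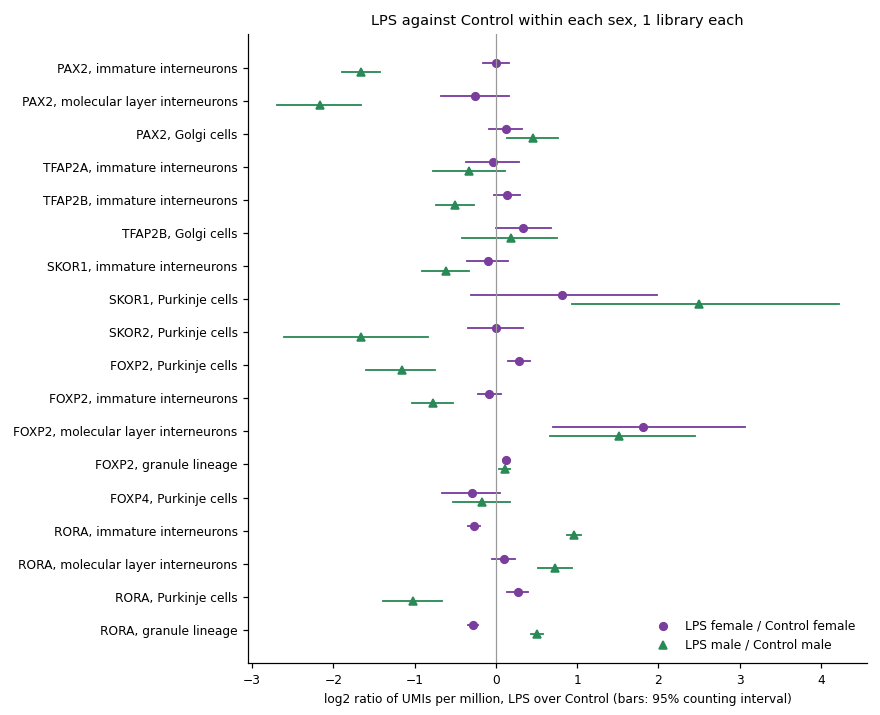
Log2 ratio of LPS to Control (x axis) for 18 pairs of factor and class (y axis), purple circles for the 2 female and green triangles for the 2 male libraries, with bars for the 95% counting interval of 1 library against 1. PAX2 in immature interneurons was at 0.0054 in females and -1.66 in males, and RORA in Purkinje cells at 0.267 and -1.02.

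In granule nuclei, which held 73.6% of FOXP2 and 36.2% of RORA UMIs, FOXP2 was at 529 and 246 CPM in Control and 578 and 265 CPM in LPS, a log2 difference of 0.09 ± 0.59 (edgeR adjusted p = 1.00), and the ratio was 0.13 in females and 0.107 in males. These ratios pool clusters of unlike share. The COMP and SFRP1 cluster held 902 of 6821, 782 of 6045, 814 of 5113 and 343 of 4324 granule nuclei. In the EXO1, COMP and RASGEF1B clusters, at the levels given above, LPS exceeded Control between males and lay below it between females. In the KIAA1217 cluster LPS was higher in both sexes. The part of cluster shares in the FOXP2 level was not tested. RORA was at 196 and 197 CPM in Control and 162 and 280 CPM in LPS, 0.17 ± 0.36, with the sexes in opposite directions. Free RNA of RORA, at 218 and 303 CPM in Control and 185 and 410 CPM in LPS, was above the granule level in each library and was likewise lower in the LPS female and higher in the LPS male. 1 of 8 factors tested, TFAP2B, did not overlap between exposures after TMM scaling, at 4.08 and 3.56 in Control and 5.12 and 4.13 CPM in LPS, against 12.8% of all genes. These TFAP2B levels lay under free RNA, at 23.8 to 38.5 CPM. Over all barcodes 1 of 9, SKOR1, did not overlap, at 11.3 and 18.7 in Control and 11.1 and 11.2 CPM in LPS after TMM scaling, where 13.2% of all genes did not overlap, whereas before it the groups overlapped, at 10.7 and 19.9 against 11.1 and 11.1 CPM.

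Genes around the factors gave no call. Of 8 upstream progenitor factors, 7 had a row and 4 entered the test in immature interneurons, where PRDM13 was at 31.9, 16.2, 49.6 and 6.85 CPM. Of 5 genes of GABA and glycine synthesis and transport all entered there, with a median log2 difference of 0.02 beside 0.01 over all genes, and GAD1 was at 658, 645, 715 and 611 CPM. In Purkinje cells 3 of the 5 entered, all lower, with a median of -0.61 beside -0.02 over all genes and none called, and GAD2 was at 114, 153, 95.6 and 39.2 CPM. Of 13 protein partners of LIM and SKI family factors, 12 entered in immature interneurons, 10 of them lower and 2 higher in LPS, with a median of -0.29 beside 0.01 over all genes, and the co-repressor gene CTBP2 was at 419, 1039, 400 and 692 CPM, higher in both male libraries. Of 15 Purkinje program genes 13 entered in Purkinje cells, 4 higher and 9 lower, with a median of -0.05 beside -0.02 over all genes. Among 5 genes reported as RORA targets, 4 entered there, 2 higher and 2 lower, with a median of 0.11. PCP4 was at 805, 598, 1021 and 682 CPM, and PCP2, given above, was highest in the LPS male library, where RORA was lowest. PCP2 was not highest in that library in Purkinje cells alone. After TMM scaling it had 4.70, 0.756, 7.96 and 11.6 CPM in immature interneurons and 8.19, 0.791, 6.51 and 17.3 CPM in granule nuclei. In both of these classes RORA was highest, not lowest, in the LPS male library. SHH, the target with too few UMIs to enter, was at 20.9, 45.8, 13.03 and 15.7 CPM, with both LPS below both Control libraries. Of the genes tested in Purkinje cells, 18.9% did not overlap between exposures. The LPS male SHH level stood for fewer than 3 UMIs, as the class held 127515 UMIs of all genes there. Of 15 family relatives, 4 entered in immature interneurons, 2 in molecular layer interneurons, 3 each in Golgi and Purkinje cells and 9 in granule nuclei, and FOXP1, a close relative of FOXP2, was at 366, 413, 347 and 328 CPM in immature interneurons.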

How the data were processed

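Nuclei of the cerebellar hemispheres and part of the vermis were profiled on the 10x Genomics 3' platform. The authors aligned reads to the rhesus build Mmul_8.0.1 with Cell Ranger, for which the submitters' processing notes name version 4 and the extract protocol version 5.0, and deposited unfiltered UMI counts per gene and barcode, without correction for free RNA. Barcodes were kept where 500 or more genes were seen and no more than 5% of UMIs were mitochondrial. Seurat 5.3.0 clustered them on 2000 variable features, less those of the set, and 30 dimensions at resolutions 0.5 and 1.0. Clusters were named from marker lists, with thresholds set after the clusters were seen. Doublets were scored with Scrublet and kept in the main values. Its automatic threshold marked none in either male library, so the median threshold of the female libraries was used there.

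UMIs were summed per class and library and tested with edgeR 4.0.16 (quasi-likelihood test, TMM, filterByExpr, Benjamini-Hochberg adjustment over all genes). The code was also run on simulated counts with a single dispersion for all genes and no gap between the sexes. That run does not show how the test fares on these libraries. DESeq2 1.42.0, no filter, sex as a term, left-out libraries, stricter barcodes, doublet removal and the finer clustering were alternatives. Shares of nuclei used nuclei thinned to 1000 UMIs. Free RNA was measured in barcodes with at most 100 UMIs. Its CPM gives the make-up of free RNA, not the amount that it adds to a nucleus, which was not measured. Named genes were the set given, the 3 genes most like each over 12 classes with at least 10 nuclei in every library, and fixed lists of related genes. The members and lists were chosen with earlier results of these data known. A UMI count of 0 was taken to allow up to 3 UMIs, and intervals (95%) cover counting error only. The levels of 1 further cluster of granule nuclei are not reported here.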

Additional observations from a re-analysis of the deposited data

Results flagged for a closer look

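The LPS to Control ratio had opposite signs in the 2 sexes for 23 of 41 pairs of factor and class, near an even split of signs. For 7 of these both 95% counting intervals lay clear of 0. The share over all genes was not computed, and the pairs are not independent, as all barcodes hold the nuclei of the other classes. The intervals narrow as UMIs rise, so this flag favours genes with many UMIs. Only the 7 are given here, and the difference between the sexes was not tested, with 1 library per sex and exposure. RORA in immature interneurons had a log2 ratio of -0.27 in females and 0.957 in males, a difference (male minus female) of 1.227. In granule nuclei it had -0.281 and 0.507, a difference of 0.788, and over all barcodes with 500 or more genes -0.138 and 0.449, a difference of 0.587. The RORA level of free RNA, at 218 and 185 CPM in the Control and LPS female and 303 and 410 CPM in the Control and LPS male libraries, turned the same way and lay above that of granule nuclei, and its part was not tested. In Purkinje cells the direction was turned, with RORA at 0.267 and -1.02, a difference of -1.287, and FOXP2 at 0.283 and -1.16, a difference of -1.443. Over all barcodes PAX2 was at 0.175 and -1.55, a difference of -1.725, and TFAP2B at 0.289 and -0.588, a difference of -0.877. These pool classes of unlike share: Golgi cells were 0.986% of Control male and 0.192% of LPS male nuclei, immature interneurons 5.32% and 3.59%, and unnamed nuclei 3.69% and 27.01%. Between males PAX2 had a ratio of 0.456 within Golgi cells, but of -1.66 within immature and -2.17 within molecular layer interneurons, the direction of the pooled value. The part of these shares was not tested.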

How the results depend on the processing

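No gene was called in any class by edgeR or DESeq2. At an unadjusted p under 0.05 edgeR had 27, 71, 14, 32, 27 and 37 genes and DESeq2 13, 44, 4, 22, 59 and 64, in immature interneurons, molecular layer interneurons, Golgi cells, Purkinje cells, granule nuclei and all barcodes. Without the filter on low counts edgeR called 2 genes in immature interneurons, 18 in molecular layer interneurons, 1 in Golgi cells and 4 in Purkinje cells, and with sex as a term it called 4 in molecular layer interneurons. With 1 library left out, where the lone library is assumed to vary like the others, the counts ran from 1 (without LPS male) to 57 (without Control female) in immature interneurons, 6 (without Control male) to 18 (without LPS female) in molecular layer interneurons, 0 to 7 (without LPS male) in Golgi cells, 1 (without Control female) to 10 (without LPS female) in Purkinje cells, and 0 in granule nuclei and all barcodes. In the finer clustering the mean level of TFAP2A in immature interneurons was 94.4 CPM, that of RORA 1336 CPM there and 2851 CPM in molecular layer interneurons. The other 39 level values moved by less than the spread between libraries.

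Of the log2 differences, 136 under settings that kept all libraries held their direction, and 19 of 76 with 1 library left out were reversed. The reversals lay in TFAP2A (-0.49 to 0.062), TFAP2B (-0.72 to 0.28), FOXP2 (-1.31 to 0.27) and RORA (-0.044 to 0.75) in immature interneurons, RORA in molecular layer interneurons (-0.24 to 1.11) and Golgi cells (-0.72 to 0.43), FOXP2 (-1.75 to 0.58), FOXP4 (-1.14 to 0.48) and RORA (-1.40 to 0.45) in Purkinje cells, and FOXP2 (-0.58 to 0.87) and RORA (-0.28 to 0.51) in granule nuclei. PAX2 kept its sign, at -1.43 to -0.31 in immature interneurons, -2.09 to -0.42 in molecular layer interneurons and 0.13 to 0.38 in Golgi cells, as did SKOR2 in Purkinje cells, at -1.67 without the LPS female and -0.10 without the LPS male library. Each fit with 1 library left out sets a single sex in 1 group against both sexes in the other. Exposure and sex cannot be told apart in such a fit, and the causes were not tested. The replicate numbers follow accession order and pair no fetuses, so no analysis was paired by them. Matching by sex, the label that both groups share, is the fit with sex as a term above. Small classes, with 15 Golgi and 18 Purkinje nuclei in the LPS male library, limit what could be seen.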

Other observations

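Unipolar brush cells, a glutamatergic class of 21, 8, 10 and 37 nuclei in the Control female, Control male, LPS female and LPS male libraries, held little of the inhibitory set. PAX2 was at 5.50, 0, 0 and 5.42 CPM, and SKOR2 and FOXP4 had no UMI, which in the smallest library allows up to 128 CPM. RORA was at 93.6, 171, 193 and 173 CPM and FOXP2 at 99.1, 85.5, 14.8 and 65.0 CPM. Both were below the free RNA level of their library, except RORA in the LPS female library, where free RNA stood at 185 CPM.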
